A study of Mus musculus with 19 samples.

Results

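Messenger RNA of 8 Krüppel-like factors, Klf2, Klf3, Klf4, Klf6, Klf7, Klf10, Klf11 and Klf13, was followed in mouse cerebral microvessels. Endothelial cells of these vessels make up the blood-brain barrier. The 8 genes were chosen by symbol, each matched to 1 Ensembl gene, and are 8 of the 39179 genes listed, of which 27448 had at least 1 count. All 8 had counts in every library and passed the filter on low counts in each comparison. The study exposed mice to electronic cigarette vapour or smoke, and 19 libraries were analysed. These were nicotine-free e-cigarette (Nic-free, 4 libraries), e-cigarette with nicotine (Nic, 3), room air (Room-air, 4), smoke exposure (smoke, 4) and a further room air group (air, 4). All were labelled as male C57BL/6 mice, bought at 7 weeks of age. The labels give neither the dose nor the length of exposure, nor the number of mice behind a library. Each exposure was set against the room air group whose title shares its style, since no label ties a control to an exposure.

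Krüppel-like factors are zinc finger transcription factors that bind GC-rich and CACCC sequences in promoters and enhancers. Laminar blood flow induces KLF2 and KLF4 in endothelial cells through the kinases MEKK2, MEKK3, MEK5 and ERK5 and the MEF2 factors, and both then raise nitric oxide synthase and thrombomodulin and hold back inflammatory adhesion molecules. KLF10 and KLF11 are early genes of TGF-beta signalling and repress transcription through SIN3A, and KLF3 represses through CtBP. KLF6 is an early injury response gene of vascular cells, KLF7 is best known for axon growth, and KLF13 activates the chemokine gene Ccl5 in T cells.

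The promoters of 4 members are printed, a set chosen after the values were seen (RefSeq, GRCm38.p6, 250 bases before to 50 after the start site). These members were called higher with nicotine than without it and lower in the air group than in the Room-air group. The windows are chr8:72318812-72319111 on the plus strand for Klf2, chr4:55532426-55532725 on the minus strand for Klf4, chr5:64803271-64803570 on the plus strand for Klf3 and chr12:24651121-24651420 on the plus strand for Klf11. Capitals mark the MEF2 consensus, the core of the cAMP response element, TGACG, on either strand, and the E-box CACGTG.
Klf2: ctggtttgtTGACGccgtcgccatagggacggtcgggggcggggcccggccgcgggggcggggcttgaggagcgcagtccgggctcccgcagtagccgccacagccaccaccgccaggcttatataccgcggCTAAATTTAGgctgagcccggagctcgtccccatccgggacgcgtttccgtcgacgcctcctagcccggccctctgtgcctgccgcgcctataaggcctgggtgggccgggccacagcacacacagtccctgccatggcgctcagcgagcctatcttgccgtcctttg
Klf4: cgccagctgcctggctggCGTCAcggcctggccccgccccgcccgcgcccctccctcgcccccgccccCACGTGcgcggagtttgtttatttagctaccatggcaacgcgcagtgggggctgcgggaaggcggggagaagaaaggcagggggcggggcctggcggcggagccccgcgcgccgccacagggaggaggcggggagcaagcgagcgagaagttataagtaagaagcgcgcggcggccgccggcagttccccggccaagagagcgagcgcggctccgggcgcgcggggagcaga
Klf3: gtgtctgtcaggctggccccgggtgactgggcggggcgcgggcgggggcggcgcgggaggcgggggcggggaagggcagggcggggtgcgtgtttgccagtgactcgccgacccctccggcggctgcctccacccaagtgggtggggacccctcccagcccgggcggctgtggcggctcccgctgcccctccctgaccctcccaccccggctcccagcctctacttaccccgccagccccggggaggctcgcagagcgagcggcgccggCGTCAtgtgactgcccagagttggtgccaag
Klf11: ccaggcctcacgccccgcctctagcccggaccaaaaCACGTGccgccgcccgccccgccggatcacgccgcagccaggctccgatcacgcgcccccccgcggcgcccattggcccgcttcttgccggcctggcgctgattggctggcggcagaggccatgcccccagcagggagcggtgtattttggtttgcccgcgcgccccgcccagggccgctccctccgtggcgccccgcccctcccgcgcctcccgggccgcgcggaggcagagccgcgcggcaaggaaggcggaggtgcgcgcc
Of the 8 members, 7 were in the promoter table, and motifs were searched on both strands of all 32851 promoters of the same length. The MEF2 consensus was in the Klf2 window, 118 bases before the start site, and in 3.19% of all promoters. The 7 member windows held 58.3 to 77.7% G and C, against a median of 52.7% over all promoters. The part of this in the motif shares was not tested. The GC box GGGCGG was in all 7 member windows and in 35.7% of all promoters, and CCACCC was in 4 of the 7 and in 31.5%. The core TGACG was in 4 of the 7 windows against 20.8% of all promoters, and the full cAMP response element TGACGTCA, which holds that core, was in none of the 7 against 1.79%. CACGTG was in 3 of the 7 windows and 7.15% of all promoters, and CCAAT in 3 and 37.4%. No member window held the AP-1 letters TGANTCA, the glucocorticoid receptor letters ACANNNTGT or the CArG box, which were in 7.81, 6.85 and 1.63% of all promoters. A match to letters is not a binding site, and no match says only that the letters are not in this window. The members lie on 8 chromosomes (GRCm38). Klf2 (ENSMUSG00000055148) is at chr8:72319033-72321656, Klf4 (ENSMUSG00000003032) at chr4:55527143-55532466, Klf3 (ENSMUSG00000029178) at chr5:64803388-64832901 and Klf11 (ENSMUSG00000020653) at chr12:24651274-24662789. Klf6 (ENSMUSG00000000078) is at chr13:5861482-5870394, Klf7 (ENSMUSG00000025959) at chr1:64029447-64122282, Klf10 (ENSMUSG00000037465) at chr15:38291463-38300706 and Klf13 (ENSMUSG00000052040) at chr7:63886351-63938915.

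Depth, as total gene counts in units of 1000000 (M), was 15.2 to 19.1 M in the nicotine-free libraries, 21.8 to 28.4 M in the nicotine libraries, 25.3 to 30.2 M in the Room-air libraries, 7.9 to 12.6 M in the smoke libraries and 9.8 to 13.5 M in the air libraries. All 12 endothelial markers were above 0 in every library, and so were all 8 neuron, 6 oligodendrocyte and 7 choroid plexus and ependyma markers. Summed endothelial markers were at 1630 to 2480 CPM (counts per 1000000 gene counts of the library) in the nicotine-free libraries, 2070 to 4020 in the nicotine libraries, 1900 to 2850 in the Room-air libraries, 1880 to 2480 in the smoke libraries and 1060 to 1940 in the air libraries. Nicotine replicate 2 stood apart in its group, at 2070 CPM against 3920 and 4020. Summed choroid plexus markers were at 866 to 18400 CPM in the nicotine-free libraries, 2070 to 7050 in the nicotine libraries, 17500 to 24700 in the Room-air libraries, 1750 to 26600 in the smoke libraries and 3680 to 24500 in the air libraries. Oligodendrocyte markers were at 18600 to 20400, 9030 to 15000, 12600 to 15200, 16600 to 24300 and 22700 to 31700 CPM in the same order of groups. Of the immune markers, Ly6g, Retnlg, Camp, Cd3e, Cd3g and Cd8a were at 0 in some libraries. In such bulk samples fewer cells of a type and less RNA per cell cannot be told apart.

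Per length of transcript (TPM, counts per length scaled to the same total, over the annotated exons), Klf2 stood highest of the members in 4 of the 5 groups and Klf3 lowest in all 5. Mean levels of Klf2 were 139 ± 18.8 TPM in the nicotine-free group, 319 ± 79.0 in the nicotine group, 223 ± 26.8 in the Room-air group, 141 ± 13.2 in the smoke group and 70.6 ± 26.3 in the air group (SD, n = 4, 3, 4, 4 and 4). In the air group Klf13 stood first, at 75.2 ± 10.2 TPM, but the ranges of the 2 genes overlapped there. In the Room-air group the order was Klf2, Klf4 (80.8 ± 11.5 TPM), Klf13 (80.3 ± 4.02), Klf6 (56.8 ± 8.07), Klf7 (40.2 ± 4.34), Klf10 (20.3 ± 2.56), Klf11 (12.8 ± 2.01) and Klf3 (5.83 ± 1.57). Klf4 and Klf13 did not differ there beyond their spread. Klf10, Klf11 and Klf3 held the last 3 places in every group, and Klf4 moved between the second place in the nicotine and Room-air groups and the fifth in the air group.

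The flow-responsive pair had the widest range over libraries. Klf2 was at 58.5, 71.3, 73.4 and 55 CPM in the nicotine-free libraries and at 145, 94.1 and 169 CPM in the nicotine libraries, against 114, 99.5, 85.3 and 108 CPM in the Room-air libraries. In the smoke libraries Klf2 was at 64.6, 65.9, 55.6 and 66.9 CPM, against 32.5, 50.9, 22.7 and 25.1 CPM in the air libraries. Every nicotine-free library lay below every Room-air library, 2 of the 3 nicotine libraries lay above them, and every smoke library lay above every air library. Klf4 was at 41.6, 51.3, 44.3 and 35.9 CPM in the nicotine-free libraries and at 111, 54.7 and 123 CPM in the nicotine libraries, against 73.5, 56.5, 53.5 and 60.4 CPM in the Room-air libraries. It was at 47.7, 39.0, 40.6 and 47.5 CPM in the smoke libraries, against 28.0, 27.7, 15.6 and 19.6 CPM in the air libraries. Klf4 thus had the order of Klf2, with nicotine replicate 2 the lowest of its group for both genes and within the Room-air range.

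The TGF-beta inducible pair was less alike. Klf10 was at 22.4, 23.0, 18.2 and 21.3 CPM in the nicotine-free libraries and at 45, 28.4 and 32.5 CPM in the nicotine libraries, against 22.2, 20.1, 23.8 and 17.8 CPM in the Room-air libraries. In the smoke libraries it was at 25.9, 20.2, 32.4 and 29.2 CPM, against 22.6, 26.2, 22.7 and 17.6 CPM in the air libraries. All 3 nicotine libraries lay above every nicotine-free and Room-air library, and smoke and air overlapped. Klf11 was at 8.94, 10.2, 10.1 and 10.1 CPM in the nicotine-free libraries and at 20.4, 13.6 and 18.1 CPM in the nicotine libraries, against 14.1, 13.7, 16.1 and 11 CPM in the Room-air libraries. It was at 10.7, 7.68, 12.0 and 13.2 CPM in the smoke libraries, against 9.02, 6.86, 6.52 and 6.79 CPM in the air libraries. Every nicotine-free and every air library lay below every Room-air library, whereas smoke and air overlapped.

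Klf3, the CtBP-binding repressor, was at 9.60, 9.14, 11 and 8.62 CPM in the nicotine-free libraries and at 16.0, 11.2 and 19.8 CPM in the nicotine libraries, against 19.7, 15.4, 19.4 and 10.4 CPM in the Room-air libraries. In the smoke libraries it was at 11.7, 14.0, 14.2 and 14.6 CPM, against 10.6, 6.97, 9.71 and 10.4 CPM in the air libraries. Nicotine lay above nicotine-free and smoke above air without overlap, while Room-air replicate 4 lay within the nicotine-free range. The exons of Klf3 overlap those of Gm20033 on the opposite strand, which had at most 164 counts in a library, where Klf3 had 68 to 594 over all libraries. Whether reads were counted by strand is not given in the sources used here, so reads of the 2 genes may not be fully told apart.

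Klf6, the injury response factor, was at 67.9, 79.3, 71.2 and 71.8 CPM in the nicotine-free libraries and at 107, 75.6 and 91.6 CPM in the nicotine libraries, against 67.7, 48.5, 66.8 and 63.9 CPM in the Room-air libraries. It was at 38.1, 38.3, 50.6 and 52.3 CPM in the smoke libraries, against 52.9, 38.7, 41.1 and 40.0 CPM in the air libraries. Both e-cigarette groups lay above the Room-air group without overlap. Klf7 was at 101, 115, 106 and 107 CPM in the nicotine-free libraries and at 129, 104 and 104 CPM in the nicotine libraries, against 81.3, 68.2, 88.6 and 85.5 CPM in the Room-air libraries. It was at 61.0, 55.7, 62.4 and 81.8 CPM in the smoke libraries, against 89.6, 69.5, 74.8 and 76.0 CPM in the air libraries. Klf7 too was higher in every e-cigarette library than in every Room-air library, and smoke and air overlapped. Klf13 was at 143, 181, 154 and 154 CPM in the nicotine-free libraries and at 135, 127 and 151 CPM in the nicotine libraries, against 155, 141, 157 and 146 CPM in the Room-air libraries. It was at 114, 135, 110 and 127 CPM in the smoke libraries, against 137, 144, 166 and 120 CPM in the air libraries. Its groups overlapped in all 5 comparisons.

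**Figure D1:**
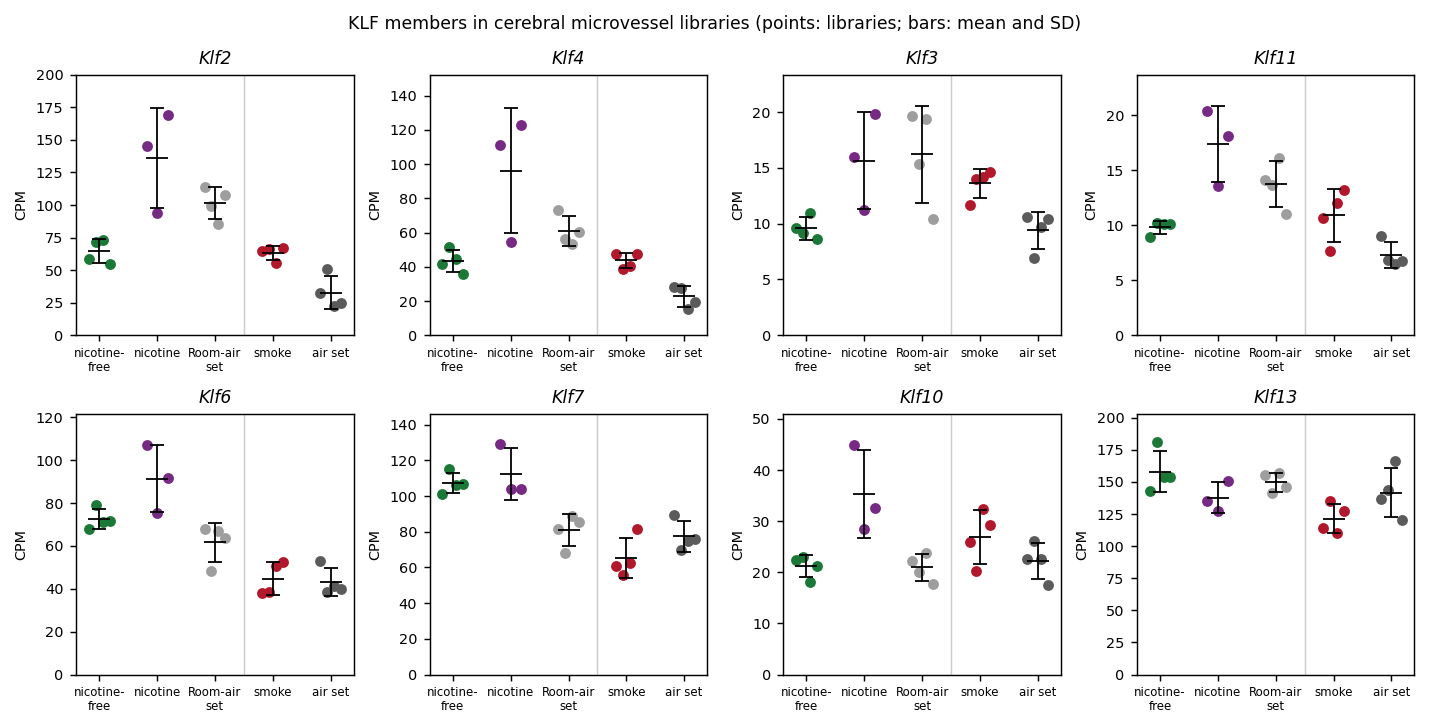
Level of each member in CPM (vertical axes, from 0) in the nicotine-free, nicotine, Room-air, smoke and air libraries. Points are libraries and bars the mean and SD (n = 4, 3, 4, 4 and 4); Klf2 and Klf4 are lowest in the air libraries, and Klf6 and Klf7 are higher in every e-cigarette library than in every Room-air library.

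Nicotine-free vapour was set against the Room-air group to ask what the vapour does without nicotine. Klf2, Klf3 and Klf11 fell and Klf7 rose, so that 4 of the 8 members passed the test, beside 21.8% of all 17235 genes tested. Klf2 averaged 64.6 ± 9.16 CPM in nicotine-free vessels and 102 ± 12.6 CPM in Room-air vessels (SD, n = 4 each), and its log2 fold change was -0.61 ± 0.16 (SE, adjusted p = 0.0185, edgeR). Klf3 averaged 9.58 ± 1.01 and 16.2 ± 4.33 CPM in the same groups, with -0.71 ± 0.20 (adjusted p = 0.0243). Klf11 averaged 9.83 ± 0.592 and 13.7 ± 2.11 CPM, with -0.43 ± 0.14 (adjusted p = 0.0362). The 3 lower members thus include the flow-responsive Klf2, the repressor Klf3 and 1 of the TGF-beta inducible pair. In the other direction Klf7 averaged 107 ± 5.94 and 80.9 ± 8.99 CPM, with 0.46 ± 0.10 (adjusted p = 0.00566). Neuron markers were at 4470 to 5280 summed CPM in nicotine-free and 3480 to 4020 in Room-air libraries, astrocyte markers at 3980 to 4640 and 2830 to 3610, microglia markers at 764 to 843 and 577 to 685, and oligodendrocyte markers at 18600 to 20400 and 12600 to 15200, all without overlap, and their part in the rise of Klf7 was not tested. Klf4 did not pass despite groups without overlap, at -0.44 ± 0.22 (adjusted p = 0.165, 95% interval -0.91 to 0.03). Klf6, Klf10 and Klf13 did not pass either, at 0.28, 0.07 and 0.13. The median over the 8 members was -0.18, against 0.004 over all genes.

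The 3 lower calls were near the threshold. Klf2 lost its call without Room-air replicate 1 or nicotine-free replicate 4 (adjusted p = 0.0509 and 0.0576), and Klf3 without Room-air replicate 1 or 3 or nicotine-free replicate 2 or 4 (0.0662, 0.0686, 0.0673 and 0.0694). Klf11 lost it when any library except Room-air replicate 4 was left out (0.0671 to 0.106), and Klf7 kept it in all 8 cases. Reads in no gene were 38.9 to 45.2% in nicotine-free and 28.7 to 33.4% in Room-air libraries, and their part in these results was not tested. Depth was 15.2 to 19.1 M counts in nicotine-free and 25.3 to 30.2 M in Room-air libraries, and depth and group cannot be told apart. With the endothelial markers as a covariate, Klf2, Klf3 and Klf11 were at -0.39, -0.33 and -0.22 (adjusted p = 0.0602, 0.121 and 0.221), while Klf7 and also Klf6 passed, at 0.50 and 0.40. With the choroid plexus markers as a covariate, the 4 called members kept their direction, at -0.59, -0.63, -0.55 and 0.40 for Klf2, Klf3, Klf11 and Klf7, and none passed (adjusted p = 0.159 to 0.298; 3 of the 8 at an unadjusted p under 0.05, edgeR). Only nicotine-free replicate 1, at 18400 summed CPM, reached the Room-air range of these markers, so covariate and exposure were hardly apart.

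The comparison of vapour with nicotine against Room-air gave 3 members that rose and none that fell, beside 3.89% of all genes tested. Klf10, the TGF-beta inducible early gene, averaged 35.3 ± 8.66 CPM in nicotine vessels (n = 3) and 21 ± 2.58 CPM in Room-air vessels (n = 4), with a log2 fold change of 0.73 ± 0.14 (SE, adjusted p = 0.0228, edgeR). Klf6 averaged 91.3 ± 15.6 and 61.7 ± 8.96 CPM, with 0.54 ± 0.13 (adjusted p = 0.0336). Klf7 averaged 112 ± 14.5 and 80.9 ± 8.99 CPM, with 0.45 ± 0.11 (adjusted p = 0.0338). Klf2 and Klf4 did not pass, at 0.39 ± 0.17 and 0.64 ± 0.23 (adjusted p = 0.183 and 0.118), and neither did Klf11 at 0.32, Klf3 at -0.07 and Klf13 at -0.14. The median over the members was 0.42, against 0.03 over all genes. This comparison shares the Room-air libraries with the one before it.

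Single libraries decided several of these calls. All 3 were lost without Room-air replicate 1 (adjusted p = 0.0508 to 0.0744), Room-air replicate 2 (0.068 to 0.0845) or nicotine replicate 1 (0.178 to 0.237), with 5, 4 and 3 of the 8 members at an unadjusted p under 0.05, and Klf6 also without Room-air replicate 4 (0.0541). Without nicotine replicate 2, the library low in endothelial markers, 5 members passed, with Klf2 at 0.59 (adjusted p = 0.0415) and Klf4 at 0.92 (0.0162) as the added ones. With the choroid plexus markers as a covariate Klf10, Klf6 and Klf7 were at 0.69, 0.48 and 0.40 and none passed (adjusted p = 0.359 to 0.407, and 3 of the 8 at an unadjusted p under 0.05 in edgeR), whereas with the endothelial markers all 3 still passed. Summed choroid plexus markers were at 2070 to 7050 CPM in nicotine and 17500 to 24700 in Room-air libraries. Without overlap, this covariate and the exposure cannot be told apart. The SE of Klf10 went from 0.14 to 0.20 with it.

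**Figure D2:**
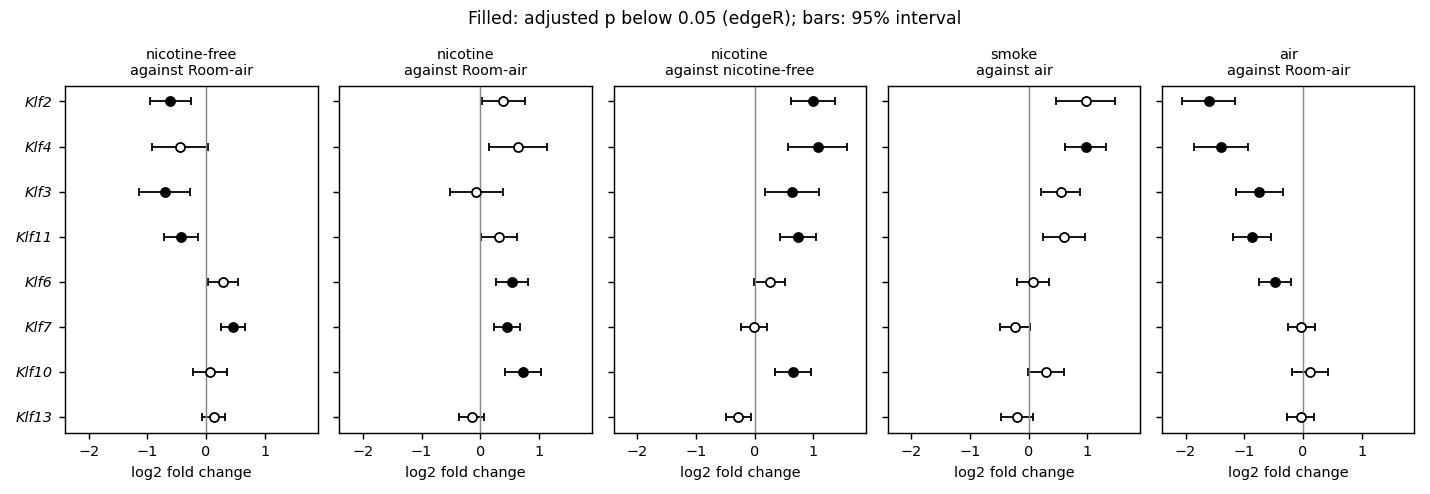
Log2 fold change of each member (horizontal axes) in 5 comparisons, with 95% intervals; filled points have an adjusted p below 0.05 in edgeR. The 5 filled points of nicotine against nicotine-free lie right of 0, from 0.64 to 1.08, and the 5 of air against Room-air lie left of it, from -1.60 to -0.48.

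Within the e-cigarette groups, vapour with nicotine was set against nicotine-free vapour. The groups also differed without overlap in depth and in some cell type markers, given below, and these and nicotine cannot be told apart. Here Klf2, Klf4, Klf3, Klf10 and Klf11 rose and none fell, 5 of the 8 members beside 24.8% of all genes tested. Klf4 averaged 96.4 ± 36.6 CPM in nicotine vessels (n = 3) and 43.3 ± 6.37 CPM in nicotine-free vessels (n = 4), a log2 fold change of 1.08 ± 0.23 (SE, adjusted p = 0.00603, edgeR). Klf2 averaged 136 ± 38.0 and 64.6 ± 9.16 CPM, with 1.00 ± 0.17 (adjusted p = 0.00152). Klf11 averaged 17.4 ± 3.42 and 9.83 ± 0.592 CPM, with 0.75 ± 0.14 (adjusted p = 0.00232). Both flow-responsive genes and both TGF-beta inducible genes were among those that rose. Klf10 averaged 35.3 ± 8.66 and 21.2 ± 2.13 CPM, with 0.66 ± 0.15 (adjusted p = 0.00495). Klf3 was nearest the threshold, at 15.7 ± 4.29 and 9.58 ± 1.01 CPM and 0.64 ± 0.22 (adjusted p = 0.0441). For these 5 members the groups did not overlap. Overlap was not counted over all genes in this or any other comparison, so how common that is was not measured. Klf6 was at 0.26 (adjusted p = 0.149), Klf7 at -0.01 with a 95% interval from -0.23 to 0.22, and Klf13 at -0.27 (adjusted p = 0.0605). The median over the members was 0.65, against 0.02 over all genes.

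Leaving out a library kept the calls of Klf2, Klf4, Klf10 and Klf11 in all 7 cases. Klf3 lost its call with median-ratio normalization or no filter on low counts (adjusted p = 0.0506 and 0.0637), and in 6 of the 7 cases, without nicotine-free replicate 1, 2, 3 or 4 (adjusted p = 0.073, 0.099, 0.055 and 0.0996) or nicotine replicate 1 or 3 (0.11 and 0.179). Endothelial markers moved the same way, at 2070 to 4020 summed CPM in nicotine vessels and 1630 to 2480 in nicotine-free vessels, and pericyte markers too, at 1230 to 2200 and 910 to 1290. Oligodendrocyte markers were lower with nicotine, at 9030 to 15000 summed CPM against 18600 to 20400 in nicotine-free libraries. So were neuron markers, at 3660 to 4230 and 4470 to 5280, and astrocyte markers, at 3340 to 3550 and 3980 to 4640. The oligodendrocyte, neuron and astrocyte ranges did not overlap, and their part was not tested. Reads in no gene were 33.0 to 38.4% in nicotine and 38.9 to 45.2% in nicotine-free libraries, and their part was not tested. Depth was 21.8 to 28.4 M counts in nicotine and 15.2 to 19.1 M in nicotine-free libraries, and depth and group cannot be told apart. With the endothelial markers as a covariate the estimates were 0.55 for Klf2 (adjusted p = 0.0503), 0.40 for Klf4 (0.234), 0.41 for Klf10 (0.144), 0.36 for Klf11 (0.119) and -0.03 for Klf3 (0.924), and a lower Klf13 at -0.41 (0.0414) was the 1 member that passed.

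For smoke against the air group, 1 member rose and none fell, beside 1.6% of all 15232 genes tested. Klf4 averaged 43.7 ± 4.51 CPM in smoke vessels and 22.7 ± 6.13 CPM in air vessels (n = 4 each), with a log2 fold change of 0.97 ± 0.16 (SE, adjusted p = 0.0307, edgeR). Klf2 had a change of the same size, at 63.2 ± 5.19 and 32.8 ± 12.8 CPM and 0.98 ± 0.22, but did not pass (adjusted p = 0.0633). Klf11 at 0.60 (adjusted p = 0.0848) and Klf3 at 0.55 (0.0858) did not pass, and Klf10, Klf6, Klf7 and Klf13 were at 0.29, 0.07, -0.23 and -0.20. The median over the members was 0.42, against 0.02 over all genes.

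The call of Klf4 was lost without air replicate 2, 3 or 4 (adjusted p = 0.0886, 0.0719 and 0.0628) or smoke replicate 1, 2 or 4 (0.084, 0.0536 and 0.0911), and without air replicate 2, the air library with the highest Klf2, Klf2 passed instead (1.26, adjusted p = 0.00925). Reads in no gene were 28.9 to 33.2% in smoke and 33.6 to 37.5% in air libraries, again not tested. DESeq2 called 4 members in the same libraries, Klf2, Klf3, Klf4 and Klf11, all higher. Summed endothelial markers were at 1880 to 2480 CPM in smoke vessels and 1060 to 1940 in air vessels, and with them as a covariate Klf4 was at 0.57 and Klf2 at 0.65 and no member passed (adjusted p = 0.381 for Klf4; 3 of the 8 at an unadjusted p under 0.05, edgeR).

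Both room air groups carry the same exposure label, yet 5 of the 8 members were lower in the air group than in the Room-air group and none was higher, beside 22.7% of all 16557 genes tested. Klf2 averaged 32.8 ± 12.8 CPM in air vessels and 102 ± 12.6 CPM in Room-air vessels (n = 4 each), with a log2 fold change of -1.60 ± 0.22 (SE, adjusted p = 0.000153, edgeR), the widest difference of any member in the 5 comparisons of groups. Klf4 averaged 22.7 ± 6.13 and 61.0 ± 8.81 CPM, with -1.39 ± 0.22 (adjusted p = 0.000517). Klf11 averaged 7.30 ± 1.16 and 13.7 ± 2.11 CPM, with -0.87 ± 0.15 (adjusted p = 0.000829). The flow-responsive pair thus had the largest differences between the 2 room air groups among the members. Klf3 was at -0.74 ± 0.19 (adjusted p = 0.0105) and Klf6 at -0.48 ± 0.13 (0.0125). Klf7, Klf10 and Klf13 did not pass, at -0.03, 0.13 and -0.04. All 5 calls held when any 1 library was left out. With the endothelial markers as a covariate Klf2 and Klf4 still passed, at -1.18 and -0.80 (adjusted p = 0.0104 and 0.0208), and Klf3, Klf6 and Klf11 did not (0.504, 0.426 and 0.0931). Depth was 9.8 to 13.5 M counts in the air libraries and 25.3 to 30.2 M in the Room-air libraries, and depth and group cannot be told apart. Reads in no gene were 33.6 to 37.5% in air and 28.7 to 33.4% in Room-air libraries, and their part was not tested.

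The choice of control thus set the direction of several members. Against the air group in place of the Room-air group, nicotine-free vessels had Klf2 higher at 0.99 (adjusted p = 0.0159) and Klf4 higher at 0.94 (0.0231), with Klf6 and Klf7 also higher at 0.75 and 0.47, 4 members beside 4.22% of all genes called. Nicotine vessels had 7 members higher than air vessels, with Klf2 at 1.98 and Klf4 at 2.01, beside 30% of all genes called. Against the Room-air group in place of the air group, smoke vessels had Klf2 at -0.64 (adjusted p = 0.0754) and Klf4 at -0.43 (0.228), and no member passed in edgeR (5 of the 8 at an unadjusted p under 0.05), beside 6.2% of all genes called. Klf7 was higher in both e-cigarette groups than in either room air group, and it passed each of these 4 tests.

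Differences between the effects were tested in 1 fit of all libraries. The smoke effect minus the nicotine-free effect passed for 5 members, beside 21.5% of all genes tested. It was higher for Klf2 at 1.59 ± 0.30 (adjusted p = 0.0017), Klf4 at 1.42 ± 0.30 (0.00393), Klf3 at 1.26 ± 0.28 (0.00383) and Klf11 at 1.04 ± 0.22 (0.00279), and lower for Klf7 at -0.68 ± 0.15 (0.00461). With the endothelial markers as a covariate only Klf7 passed, at -0.87, and Klf2 was at 1.05 (adjusted p = 0.0516). The smoke effect minus the nicotine effect passed for 1 member, beside 5.59% of all genes tested. That member was Klf7 at -0.66 ± 0.16 (adjusted p = 0.0282), which lost its call without Room-air replicate 2 (0.056), nicotine replicate 1 or 2 (0.104 and 0.0632) or air replicate 1 (0.0575), and without nicotine replicate 3 Klf3 passed as well (0.86, adjusted p = 0.0445). Each difference contains both room air groups, so it carries their difference too. In air against Room-air vessels Klf2, Klf4, Klf3 and Klf11 were at -1.60, -1.39, -0.74 and -0.87. Their means were 63.2, 43.7, 13.6 and 10.9 CPM in smoke vessels and 64.6, 43.3, 9.58 and 9.83 CPM in nicotine-free vessels. Klf7 averaged 65.2 CPM in smoke and 107 CPM in nicotine-free vessels, and was at -0.025 in air against Room-air vessels.

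Across all 19 libraries, with each group's mean taken out, the members differed in how closely they followed the endothelial markers. Pearson's r with the mean log2 CPM of the 12 markers was 0.82 for Klf4, 0.76 for Klf11, 0.64 for Klf2, 0.62 for Klf3 and 0.60 for Klf6 (Spearman's rho 0.75, 0.80, 0.64, 0.69 and 0.59), and 0.44 for Klf10, 0.43 for Klf7 and 0.15 for Klf13. These values describe deviations of libraries that share depth and composition and carry no test. Klf13 was instead nearest to the astrocyte and neuron markers, at r = 0.56 and 0.55. Klf6 and Klf7 were nearest to the fibroblast markers, at 0.74 and 0.61, and Klf2 was nearest to smooth muscle markers, at 0.72. Klf11 was nearest to pericyte markers, at 0.78, and Klf10 to lymphocyte markers, at 0.55, which summed to at most 9.94 CPM in a library. Klf4 and Klf3 were nearest to the endothelial markers.

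Per 1000 endothelial marker counts, a ratio chosen after the values were seen and given without a test, Klf2 was at 33.2 ± 2.59 in nicotine-free vessels, 41.4 ± 4.26 in nicotine vessels, 42.3 ± 11.1 in Room-air vessels, 30.2 ± 4.76 in smoke vessels and 21.8 ± 5.94 in air vessels. Its nicotine libraries still lay above its nicotine-free libraries without overlap, at 36.9 to 45.4 and 29.7 to 35.9. Klf4 was at 28.5 ± 2.09 in nicotine vessels and 22.4 ± 3.33 in nicotine-free vessels, and at 20.8 ± 2.77 in smoke vessels and 15.1 ± 0.919 in air vessels, again without overlap in either pair. Klf11 was within 4.99 to 5.54 in the mean of every group, so that on this scale its groups did not stand apart. Klf7 was at 56.0 ± 9.89 in nicotine-free vessels and 36.3 ± 12.4 in nicotine vessels, against 33.4 ± 7.81 in Room-air vessels.

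**Figure D3:**
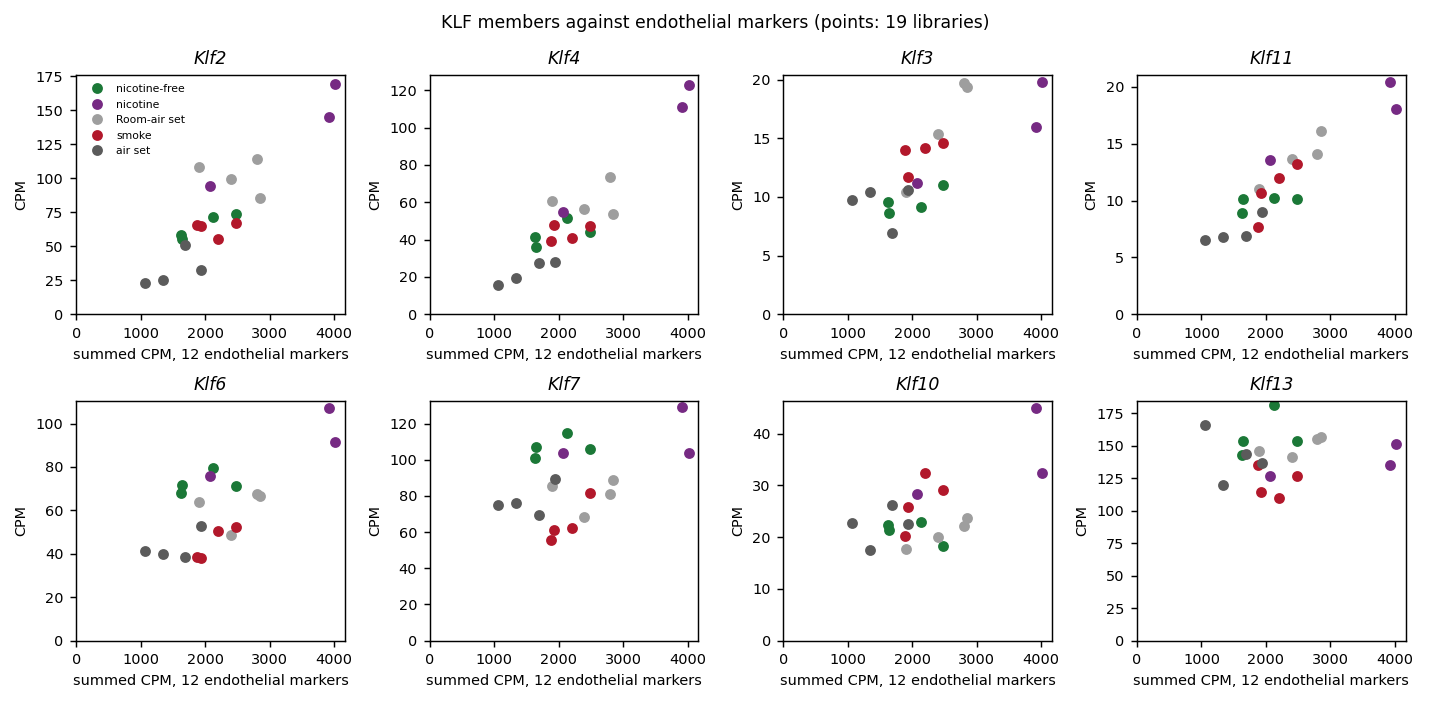
Level of each member (vertical axes, CPM) against the summed CPM of the 12 endothelial markers (horizontal axes) in the 19 libraries, coloured by group. Klf4 and Klf11 climb with the markers from the air library at 1060 CPM to the nicotine library at 4020 CPM, and Klf13 does not.

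Among the members themselves, 2 pairs stood out in the same deviations. Klf2 and Klf4, the flow-responsive pair, had r = 0.85 (rho 0.84, 19 libraries), and Klf6 and Klf7 had r = 0.86 (rho 0.84). Klf11 followed Klf6 at 0.71, Klf10 at 0.70 and Klf7 at 0.66, while Klf2 was at -0.01 with Klf3 and 0.01 with Klf7. Klf13 was at or under 0.26 with every other member. The genes most like each member in these deviations were sought among 14877 protein-coding genes, where the highest r is high by choice. Klf2 was most like Ilk, an integrin-linked kinase gene (0.91), and Rit1 (0.87). Mean levels of Ilk ran from 101 to 114 CPM over the 5 groups. Klf3 was most like Notch1, the receptor of arterial endothelium (0.93), and Ripk1 (0.89), and Klf4 was most like Tbx3 (0.90) and Epha2 (0.88). Klf6 was most like Ebf1 (0.87) and Bicc1 (0.87), Klf7 like Brd3 (0.90) and Fstl1 (0.87), and Klf10 like Fam241a (0.92) and Tpd52 (0.89). Klf11 was most like Phf11b (0.91) and Ablim1 (0.91), and Klf13 like Tshz2 (0.87) and Ap3s2 (0.86).

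**Figure D4:**
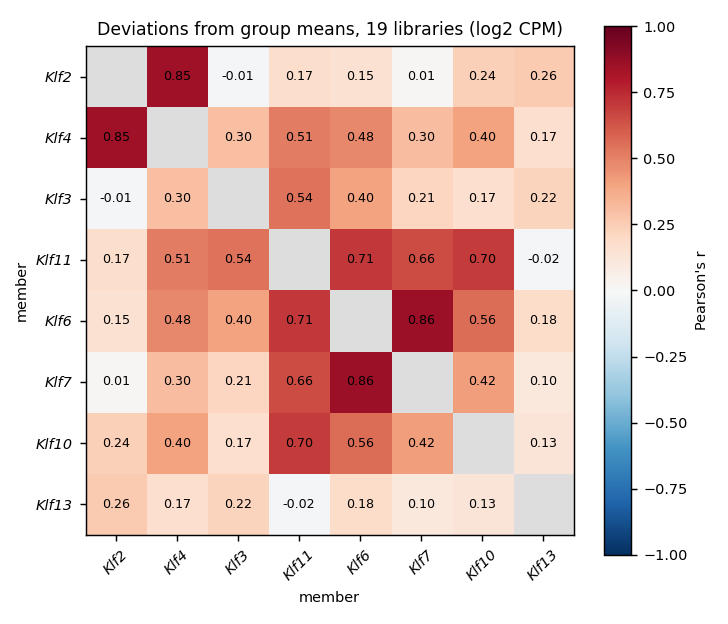
Pearson's r between members (rows and columns) over 19 libraries after each group's mean log2 CPM was taken out; blue is negative and red positive. The pairs Klf2 with Klf4 (0.85) and Klf6 with Klf7 (0.86) are the strongest, and Klf13 is weakly related to all others.

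The remaining Krüppel-like and SP factors bind the same kind of sequence. Of 18 genes, 15 were tested with the e-cigarette groups, and 20% of those tested were called in nicotine-free against Room-air, in nicotine against nicotine-free and in air against Room-air vessels, near the 21.8, 24.8 and 22.7% of all genes. In nicotine against Room-air and smoke against air vessels 1 gene was called each, 6.67 and 7.14% of those tested against 3.89 and 1.6% of all genes. Against Room-air, nicotine-free vessels had Klf16 higher at 0.49 and Klf15, a glucocorticoid-induced factor, and Sp1 lower at -0.65 and -0.31. Nicotine vessels had Klf15 lower at -0.46, and nicotine against nicotine-free vessels had Sp1 and Sp3 higher at 0.46 and 0.54 and Klf16 lower at -0.38. In smoke against air vessels Klf15 rose by 0.45, with 29.8 ± 1.31 CPM in smoke vessels and 22.0 ± 1.54 CPM in air vessels. In air against Room-air vessels Sp7 was higher at 0.93 and Klf15 and Sp1 lower at -0.72 and -0.51. Klf17 was at 0 counts in all 19 libraries.

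The genes upstream of KLF2 and KLF4 in endothelium were 16, all tested. In nicotine against nicotine-free vessels 8 rose and 2 fell, with a median of 0.39. Those named by lowest adjusted p were Map3k3, which encodes MEKK3, at 0.66 (adjusted p = 0.000323, edgeR), Krit1, which restrains it, at 0.69 (0.00187), Mef2a at 0.45 (0.00643) and Mef2c at -0.49 (0.0068). In nicotine-free against Room-air vessels 1 rose and 4 fell, Mef2c at 0.77, Map3k3 at -0.58, the stretch-activated channel gene Piezo1 at -0.81 and Heg1 at -0.85 among them. In nicotine against Room-air vessels only Krit1 passed, at 0.58. In smoke against air vessels none of the 16 passed in edgeR, with 10 at an unadjusted p under 0.05 and 4 called by DESeq2. In air against Room-air vessels 1 rose and 5 fell, with Map3k3 at -0.53, Piezo1 at -0.99, Mef2c at 0.64 and Heg1 at -1.10. The share called was 31.2% in nicotine-free against Room-air and 37.5% in air against Room-air vessels, against 21.8 and 22.7% of all genes. In nicotine against Room-air vessels it was 6.25% against 3.89%. Pecam1 of this list is also an endothelial marker.

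Genes that KLF2 or KLF4 raise in endothelium were 11. In nicotine against nicotine-free vessels 4 rose and 2 fell, with S1pr1 at 0.50, Thbd (thrombomodulin) at 1.12, Adamts4 at -0.67 and Ass1 at -0.58. Thbd averaged 120 ± 46.2 CPM in nicotine vessels and 52.6 ± 6.03 CPM in nicotine-free vessels. In nicotine-free against Room-air vessels 2 rose, Ass1 at 0.48 and Adamts4 at 0.45, and 2 fell, S1pr1 at -0.47 and Thbd at -0.65. In air against Room-air vessels 1 rose and 5 fell, among them S1pr1 at -0.61, Thbd at -1.0 and Nos3, the endothelial nitric oxide synthase, at -0.88. The share called was 36.4% in nicotine-free against Room-air and 54.5% in air against Room-air vessels, against 21.8 and 22.7% of all genes. None of the 11 passed in nicotine against Room-air vessels (2 at an unadjusted p under 0.05 in edgeR and 0 by DESeq2) or in smoke against air vessels (5 and 2). Tek of this list is also an endothelial marker and Aqp1 a choroid plexus marker.

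Of 9 genes that KLF2 or KLF4 lower, such as those of adhesion molecules, Ace was lower in nicotine-free than in Room-air vessels at -1.57. It was the 1 gene of the list called there, 12.5% of those tested, against 21.8% of all genes. Summed choroid plexus markers were at 866 to 18400 CPM in nicotine-free and 17500 to 24700 in Room-air libraries. Their part in the Ace value was not tested. Both comparisons with nicotine vessels, and smoke against air vessels, had none past the threshold in edgeR. At an unadjusted p under 0.05 there were 1 in nicotine against Room-air vessels, 2 in nicotine against nicotine-free vessels and 2 in smoke against air vessels, and DESeq2 called 1, 0 and 0. The median of the genes that KLF2 or KLF4 lower was 0.43 in nicotine against nicotine-free vessels, beside 0.50 for the genes that they raise, so both lists had a median above 0 there. Kdr of the first list is also an endothelial marker. The share of list members that passed in that comparison was 62.5% of the upstream genes and 54.5% of the raised genes, beside 24.8% of all genes. Summed endothelial markers were at 2070 to 4020 CPM in nicotine and 1630 to 2480 in nicotine-free vessels. Their part in the shares of these lists was not tested, in this or the other comparisons.

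**Figure D5:**
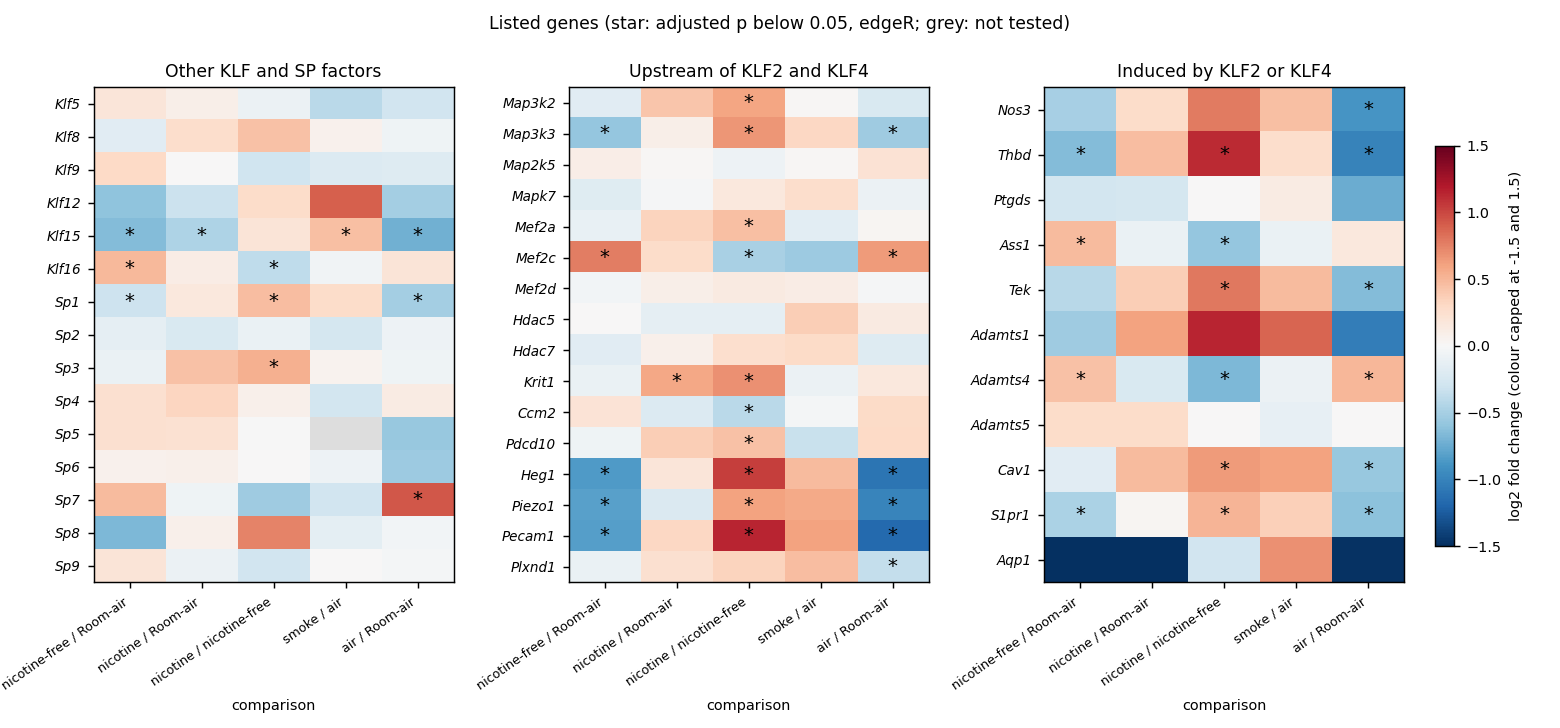
Log2 fold changes (colour, capped at -1.5 and 1.5) of the tested genes of 3 lists (rows) in 5 comparisons (columns), with a star at an adjusted p below 0.05 in edgeR and grey for a gene not tested. In the third column, nicotine against nicotine-free, 10 of 16 upstream genes and 6 of 11 raised genes carry a star, and in the fourth, smoke against air, none of either list does.

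Around KLF10 and KLF11, 5 of 14 genes of TGF-beta signalling rose in nicotine against nicotine-free vessels and none fell, a share of 35.7% against 24.8% of all genes, among them Skil at 0.61, the receptor gene Tgfbr2 at 0.90, Smad3 at 0.38 and Id1 at 0.68. In nicotine-free against Room-air vessels 3 fell, Tgfbr2 at -0.78, Smad3 at -0.26 and Tgfb2 at -0.58, a share of 21.4% against 21.8% of all genes and so no result about the list. In nicotine against Room-air vessels Skil rose at 0.52 and Tgfb2 fell at -0.81, and in air against Room-air vessels 5 fell, with Tgfbr2 at -1.11 and Acvrl1, a receptor of endothelium, at -0.88. These counts are 14.3% against 3.89% of all genes in nicotine against Room-air, and 35.7% against 22.7% in air against Room-air vessels. In smoke against air vessels none passed in edgeR, with 6 at an unadjusted p under 0.05 and 4 called by DESeq2. Of 7 co-repressor genes, those of the KLF3 partners CtBP moved apart in nicotine-free against Room-air vessels, where Ctbp1 rose at 0.27 and Ctbp2 fell at -0.39. Ctbp1 fell at -0.48 in nicotine against nicotine-free vessels, and Ctbp2 was lower at -0.43 in air against Room-air vessels. The share of the 7 called in these 3 comparisons was 28.6, 14.3 and 14.3%, against 21.8, 24.8 and 22.7% of all genes, and so no result about the list. None of the 7 passed in edgeR in nicotine against Room-air or in smoke against air vessels, with 2 at an unadjusted p under 0.05 and 0 called by DESeq2 in each.

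Immediate early genes, which many stimuli and also tissue handling induce, were 25. Their share called was 36% in nicotine-free against Room-air, 28% in nicotine against nicotine-free and 28% in air against Room-air vessels, against 21.8, 24.8 and 22.7% of all genes. In nicotine-free against Room-air vessels 6 rose, with Junb at 0.80 and Nr4a2 at 0.71, and 3 fell, with Maff at -1.59 and Egr3 at -0.65. In nicotine against Room-air vessels Nr4a1 rose at 0.51. It was the 1 gene of the list called there, 4% against 3.89% of all genes and so no result about the list. In nicotine against nicotine-free vessels 5 rose and 2 fell, with Maff at 1.95, Fosl2 at 0.67, Egr3 at 0.58 and Jund at -0.41. In smoke against air vessels Atf3 rose at 1.44 and Maff at 1.03, a share of 8% against 1.6% of all genes. In air against Room-air vessels 1 rose and 6 fell, with Maff at -1.83 and Zfp36 at -0.90. Their summed level was 882 to 1160 CPM in nicotine-free vessels, 995 to 1300 in nicotine vessels, 889 to 963 in Room-air vessels, 839 to 1160 in smoke vessels and 674 to 1030 in air vessels, so the ranges overlapped except between nicotine and Room-air vessels. In the deviations over 19 libraries the members were at r = 0.10 (Klf3) to 0.49 (Klf13) with this list, whose part in the results was not tested.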

How the data were processed

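Polyadenylated RNA of 19 cerebral microvessel libraries was read on 1 strand-specific end of 80 nt, per the labels' protocols. The deposited values were raw counts per gene, made by the authors with STAR and HTSeq on mm10, per the submitters' processing notes; versions and the strand setting of the counting are not given in the sources used here. The 5 summary lines of each file were left out, among them reads in no gene, at 28.7 to 45.2% of all lines' counts, a share that differed between groups. Of 39179 genes, 37693 had a GENCODE M21 record. No replicates agreed within sampling noise. Nothing says that libraries of a group came from separate animals, so p-values measure the spread between these libraries, which may be technical.

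Counts were tested with edgeR 4.0.16 (limma 3.58.1, R 4.3.3): TMM normalization, filterByExpr at a minimum count of 10, the robust quasi-likelihood test, 2-sided, with Benjamini-Hochberg adjustment over all genes tested and a threshold of 0.05. The 3 e-cigarette comparisons came from 1 fit of 11 libraries, smoke against air from a fit of 8, and the rest from a fit of all 19. The code was tested on simulated data with 200 changed genes. CPM were computed from total gene counts, and TPM from the union of annotated exons. Correlations used log2(CPM + 0.5) with group means taken out. Marker lists entered covariates as their mean log2 CPM. Alternatives were median-ratio normalization, no filter on low counts, DESeq2 1.42.0, other libraries in the fit, a replicate block, each marker covariate, the other room air group and leaving out each library.

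The members and lists were chosen with earlier results of these data known. All members are named. Of each other list, genes past the threshold were named, at most 4 for each comparison, by lowest adjusted p, and of the genes most like a member the 2 with the highest r. A result on 1 listed gene is not reported here.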

Additional observations from a re-analysis of the deposited data

Results flagged for a closer look

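In 3 of the 32 sets of 4 libraries (8 members in 4 groups), 1 library stood apart by Dixon's test at the 95% level, where chance gives about 1 in 20. Air replicate 1 was the highest of its group for Klf6, at 52.9 CPM, and for Klf11, at 9.02 CPM. Nicotine-free replicate 1 was the lowest of its group for Klf11, at 8.94 CPM.

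The effect of smoke differed from that of nicotine-free vapour, by the test of the difference, for Klf2 (log2 1.586), Klf3 (1.257), Klf4 (1.417) and Klf11 (1.035), which were higher, and for Klf7 (-0.681), which was lower. The effect of smoke differed from that of nicotine vapour for Klf7 (-0.664). Each effect was taken against its own room air group, so these values carry the difference between the 2 room air groups. Between smoke and nicotine-free vessels themselves, Klf2 averaged 63.2 and 64.6 CPM and Klf4 43.7 and 43.3. Klf11 averaged 10.9 and 9.83 CPM, Klf3 13.6 and 9.58 and Klf7 65.2 and 107.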

How the results depend on the processing

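Of 968 alternative values for the 56 member results, 843 kept their direction and their side of the threshold, 70 lost the call, 21 gained it and 34 turned direction, 5 of these among called members. Of 24 called results, 3 passed every alternative, Klf2 and Klf4 in air against Room-air and Klf7 in the smoke effect minus the nicotine-free effect. The other room air group as control was an alternative only for nicotine-free and nicotine against Room-air and for smoke against air. These 3 results were thus not put to it. Causes of the changes were not tested.

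The members called in nicotine-free against Room-air (4) became 2 with the endothelial covariate, 0 with the choroid covariate and 1 to 4 with a library left out. In nicotine against Room-air (3) they became 0 with the choroid covariate, 1 with only the groups compared in the fit, 7 with the air group as control and 0 to 5 with a library left out. In nicotine against nicotine-free (5) they became 1 with the endothelial covariate. In smoke against air (1) they became 0 with the endothelial covariate, 2 with the choroid covariate, 4 by DESeq2, 3 with all 19 libraries, 0 with the Room-air group as control and 0 to 1 with a library left out. In air against Room-air (5) and in smoke minus nicotine-free (5) they became 2 and 1 with the endothelial covariate. In smoke minus nicotine (1) they became 0 with the choroid covariate and 0 to 2 with a library left out.

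Directions turned with the control. With the air group, nicotine-free vessels had Klf2 at 0.985, Klf3 at 0.023, Klf4 at 0.938, Klf10 at -0.068 and Klf11 at 0.428, and nicotine vessels had Klf3 at 0.654. With the Room-air group, smoke vessels had Klf2 at -0.637, Klf3 at -0.204, Klf4 at -0.432, Klf6 at -0.412 and Klf11 at -0.273. With the endothelial covariate, Klf3 was at -0.034 in nicotine against nicotine-free, Klf6 at -0.165 in smoke against air, Klf7 at 0.125 in air against Room-air and Klf10 at -0.083 in smoke minus nicotine-free. With the choroid covariate, Klf3 was at 0.004 in nicotine against Room-air and Klf13 at 0.029 in smoke minus nicotine. Klf7 in nicotine against nicotine-free was at 0.007 with no filter. With a library left out, Klf3 ran from -0.285 to 0.119 in nicotine against Room-air, Klf7 from -0.098 to 0.042 in nicotine against nicotine-free, Klf6 from -0.014 to 0.163 in smoke against air, Klf7 from -0.099 to 0.025 and Klf13 from -0.127 to 0.03 in air against Room-air, and Klf13 from -0.169 to 0.052 in smoke minus nicotine. None of these last values was called.

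With the replicate block 3, 2, 5, 0, 5, 1 and 5 members were called in nicotine-free against Room-air, nicotine against Room-air, nicotine against nicotine-free, smoke against air, air against Room-air, smoke minus nicotine and smoke minus nicotine-free, and Klf7 in nicotine against nicotine-free was at 0.003. In smoke against air all calls among the members and all but 5 among all genes were lost (Klf4 at 1.00, adjusted p = 0.0748, with 4 members at an unadjusted p under 0.05, edgeR). The numbers were not taken to pair libraries: deviations of same-numbered libraries had r from -0.365 to 0.338, 5 of 18 over 0.1, and in 0 of 5 comparisons was every library closest to its own number.

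Of all genes, 3753 were called in nicotine-free against Room-air, 277 with the choroid covariate, 699 against the air group and 2186 to 3534 with a library left out. For nicotine against Room-air 670 became 2483 with the endothelial covariate, 0 with the choroid covariate (1780 at an unadjusted p under 0.05), 1645 by DESeq2, 4961 against the air group and 0 to 2956 with a library left out. For nicotine against nicotine-free 4273 became 2401 to 4679 with a library left out. For smoke against air 244 became 466 with no filter, 2 with the endothelial covariate, 744 with the choroid covariate, 924 by DESeq2, 519 with all libraries, 1027 against the Room-air group and 1 to 192 with a library left out. For air against Room-air 3761 became 593 and 2336 with the endothelial and choroid covariates and 2415 to 3496 with a library left out. For smoke minus nicotine 925 became 120 with the choroid covariate, 1754 by DESeq2, 351 with only the groups compared and 13 to 2476 with a library left out. For smoke minus nicotine-free 3558 became 835 and 2109 with the endothelial and choroid covariates. Depth limits Klf11 and Klf3 most, which had as few as 61 and 68 counts in a library.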
